A study of Mus musculus with 10 samples.

Results

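Neutrophil transcripts were followed here through 10 genes: the calgranulins S100a8 and S100a9, the receptor genes Cxcr2, Csf3r, Trem1 and Clec4d, the cytokine gene Il1b, the surface antigen gene Ly6g, and the granule genes Mmp8 and Ngp. The genes were chosen by symbol from what is known of the cell, and lactoferrin (Ltf) was left out because cells that make milk express it too. Of the 10, 9 had a row among the 26063 genes of the table, and Ly6g, which had none, was not analysed here. Of the 9, 7 passed the filter on low counts and were tested with all other genes, while Mmp8 and Ngp were too sparse for it.

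Bulk RNA was sequenced from 10 mammary tumours, 5 from 16IC/WT mice (16IC) and 5 from EIC/WT mice (EIC), WT standing for the wild-type allele. All the mice were female FVB/N, and both groups were given doxycycline (2 mg/ml). Tumours were harvested at their end point and flash-frozen for RNA. What the allele names abbreviate, which promoter drives them and how old the mice were is not stated in the labels, and each tumour carries the name of its own animal. The number after a genotype only tells its tumours apart. Levels are CPM, the counts of a gene relative to its library's total after scaling by TMM, given as mean ± SD over 5 tumours where summarised, and differences are log2 of 16IC over EIC from edgeR's quasi-likelihood test. Libraries held 14813940 to 16947400 counts, so 1 count was worth 0.0580 to 0.0720 CPM. Mammary epithelial genes were abundant, as the tissue label has it: the summed level of 6 of them (Epcam, Krt8, Krt18, Krt19, Cdh1 and Elf5) was 4570 ± 560 CPM in 16IC and 4717 ± 1027 CPM in EIC.

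Neutrophils are short-lived granulocytes made in the bone marrow under the cytokine G-CSF and called into tissue by chemokines that bind CXCR2. Their granules are filled in a fixed sequence during maturation, so that some granule genes are transcribed only in precursors, whereas S100A8 and S100A9, receptors and interleukin 1 beta are made by circulating and tissue cells. In tumours they are studied both as inflammatory cells and as cells that restrain lymphocytes. Several members are not private to neutrophils: monocytes also express Il1b, Clec4d, Trem1 and Csf3r, and stressed keratinocytes express S100a8 and S100a9.

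The stretches of 250 bases before the RefSeq start were searched for letters that spell the core of sites of granulocyte transcription factors, since the members varied together between tumours. All 10 members, Ly6g included (with 2 annotated starts), had such a stretch in the RefSeq promoter table of GRCm38.p6. The letters were TTGCNNAA for C/EBP factors, GAGGAA for PU.1, TATAAA for a TATA box, and an NF-kB site was searched too, each on both strands. The C/EBP letters were found in 4 of the 10 members and in 9.56% of all 32851 promoter stretches of that length, and the PU.1 letters in 7 members and 23.3% of all. The NF-kB letters were found in 2 members (17.6% of all), in Ly6g overlapping a PU.1 match, and the TATA letters in 3 (12.4% of all). Such a match describes letters and not a bound site. The RefSeq starts of S100a8, Ngp, Csf3r and Cxcr2 lie inside the gene spans of the table, so part of those stretches falls within the annotated gene. The stretches of S100a8 and S100a9, which lie close together on chromosome 3 on opposite strands, and of the granule gene Ngp are shown because these 3 genes had the largest differences between the genotypes in the fit without a count filter, with matches in capitals. In S100a8 the second PU.1 match runs directly into the TATA match, S100a9 holds 1 C/EBP match, and Ngp holds 2 C/EBP matches, the second one close to its start.
S100a8 (GRCm38.p6, chr3:90668821-90669070, plus strand): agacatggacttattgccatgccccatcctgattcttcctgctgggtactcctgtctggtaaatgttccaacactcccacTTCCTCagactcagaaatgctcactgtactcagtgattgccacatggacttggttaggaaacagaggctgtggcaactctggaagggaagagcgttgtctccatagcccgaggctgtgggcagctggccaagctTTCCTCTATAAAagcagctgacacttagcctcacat
S100a9 (GRCm38.p6, chr3:90695722-90695971, minus strand): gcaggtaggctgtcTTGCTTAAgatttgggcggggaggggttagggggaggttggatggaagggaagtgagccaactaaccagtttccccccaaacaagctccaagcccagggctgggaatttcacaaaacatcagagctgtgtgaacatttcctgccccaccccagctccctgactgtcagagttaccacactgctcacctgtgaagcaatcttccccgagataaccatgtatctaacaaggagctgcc
Ngp (GRCm38.p6, chr9:110419558-110419807, plus strand): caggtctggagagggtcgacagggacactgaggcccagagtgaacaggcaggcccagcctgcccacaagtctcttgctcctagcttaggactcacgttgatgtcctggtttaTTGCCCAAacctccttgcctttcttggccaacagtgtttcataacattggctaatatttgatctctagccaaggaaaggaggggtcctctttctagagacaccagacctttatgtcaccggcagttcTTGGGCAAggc

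All 9 measured members had a lower mean in 16IC, but not one passed the test over all genes. The summed level of the 9 was 16.4 ± 10.1 CPM in 16IC, from 6.69 to 31.0 CPM, and 54.2 ± 38.2 CPM in EIC, from 22.5 to 97.4 CPM (n = 5 each). The range in 16IC reached into that of EIC: 16IC 5, at 31.0 CPM, and 16IC 2, at 22.8 CPM, exceeded EIC 2, and 16IC 5 also exceeded EIC 3. Among 14915 genes tested by edgeR, 0 (0%) had an adjusted p under 0.05, and so 0 of the 7 tested members did. At an unadjusted p under 0.05, 4 of the 7 were lower, where 6.29% of all tested genes were, and 5 of the 7 had a difference under -1, where 6.13% of all did. Cxcr2 passed the filter mainly through EIC, so these counts describe the members that passed and support nothing more. DESeq2 called 3 of the 9 members as lower in 16IC (S100a8, Cxcr2 and Ngp), where it called 1.27% of 16838 genes as lower and 2.11% in either direction. No member had groups without overlap, where every 16IC tumour was below every EIC tumour for 1.19% of tested genes. Without the filter on low counts, where all 9 members can be read, edgeR gave all 9 a negative difference, with a median of -1.22 and 6 at an unadjusted p under 0.05. Over all 26063 genes of that fit the median was -0.09, 56% were negative, 6.04% were negative at an unadjusted p under 0.05, and 0 passed after adjustment. In these bulk samples fewer neutrophils and less of these RNAs per neutrophil cannot be told apart.

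**Figure D1:**
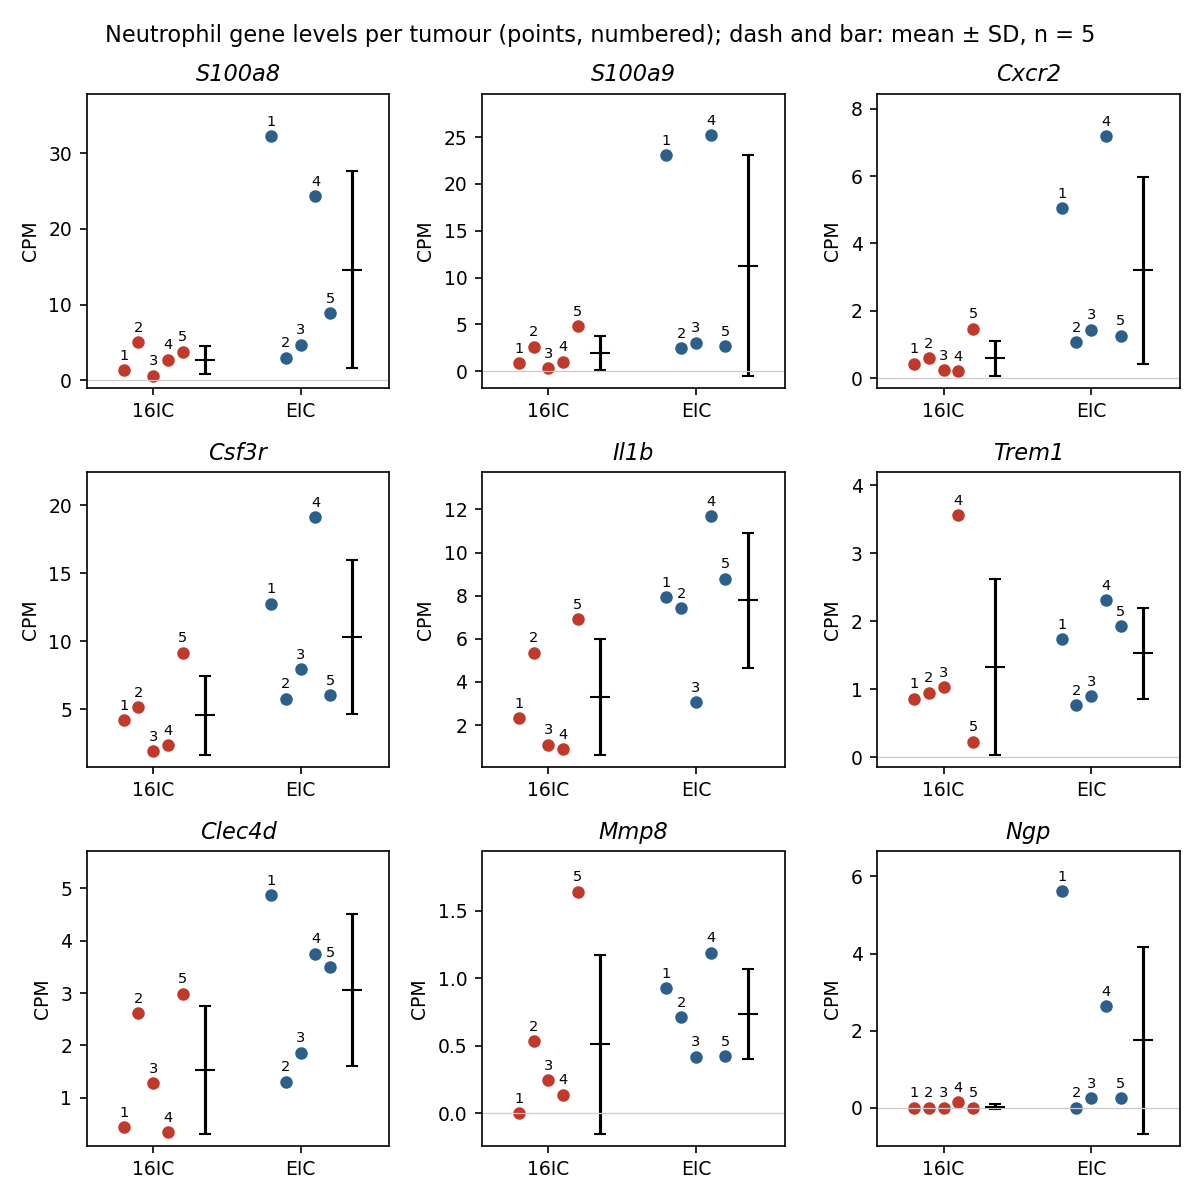
Level of each measured member in CPM (vertical axis, scale set per gene) in 16IC (left) and EIC tumours (right), 1 numbered point per tumour, with the mean ± SD beside each group (n = 5). EIC 1 and EIC 4 stand highest for S100a8, S100a9, Cxcr2, Csf3r and Ngp, while 16IC 4 stands highest for Trem1 and 16IC 5 for Mmp8.

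S100a8 and S100a9 encode the calgranulins, small calcium-binding proteins that pair with each other and make up much of the protein of the neutrophil cytosol. S100a8 (ENSMUSG00000056054, chromosome 3, 90668978 to 90670035, plus strand, GRCm38) had 1.30, 4.996, 0.608, 2.74 and 3.75 CPM in 16IC 1 to 5, against 32.2, 2.97, 4.67, 24.3 and 8.85 CPM in EIC 1 to 5. Of the 16IC tumours, 3 lay below the lowest EIC tumour, and 3 EIC tumours lay above the highest 16IC tumour. The difference was -2.44 (SE 0.75, 95% interval -4.11 to -0.77, edgeR adjusted p = 0.288). S100a9 (ENSMUSG00000056071, chromosome 3, 90692632 to 90695721, minus strand) had 0.865, 2.62, 0.304, 1.03 and 4.81 CPM in 16IC 1 to 5, against 23.1, 2.44, 3.06, 25.2 and 2.65 CPM in EIC 1 to 5. Here EIC 1 and EIC 4 stood far above the rest, and 16IC 5 exceeded the other 3 EIC tumours. The difference of S100a9 was -2.54 (SE 0.92, 95% interval -4.59 to -0.49, edgeR adjusted p = 0.317), and DESeq2 did not call it (adjusted p = 0.0647). Within a tumour S100a8 had 0.781 to 2.67 times the CPM of S100a9 in 16IC and 0.965 to 3.34 times in EIC, so the ratio did not separate the genotypes. Together they made 25.7 ± 8.48% of the members' summed CPM in 16IC and 40.1 ± 14.2% in EIC.

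The receptors through which neutrophils are recruited and produced came next. Cxcr2 (ENSMUSG00000026180, chromosome 1, 74153989 to 74161246, plus strand) encodes the receptor of the neutrophil chemokines. It had 0.432, 0.595, 0.243, 0.206 and 1.47 CPM in 16IC 1 to 5, against 5.04, 1.07, 1.44, 7.19 and 1.26 CPM in EIC 1 to 5. These low levels rest on 3 to 25 counts per 16IC tumour and 18 to 115 per EIC tumour, and 16IC 5 was the sole 16IC tumour within the EIC range. The difference was -2.42 (SE 0.73, 95% interval -4.04 to -0.80, edgeR adjusted p = 0.288). Only 1 of the 16IC tumours reached the level of the filter (0.603 CPM), so Cxcr2 was tested through its EIC level. Csf3r (ENSMUSG00000028859, chromosome 4, 126024550 to 126044440, plus strand), the receptor of G-CSF, had 4.18, 5.11, 1.89, 2.33 and 9.15 CPM in 16IC 1 to 5, against 12.7, 5.76, 7.91, 19.1 and 6.02 CPM in EIC 1 to 5. Of the 16IC tumours, 4 lay below the lowest EIC tumour, and 16IC 5 lay above 3 EIC tumours. Its difference was -1.18 (SE 0.49, 95% interval -2.27 to -0.09, edgeR adjusted p = 0.358). With 1 tumour left out it ran from -1.61 (without 16IC 5) to -0.85 (without EIC 4).

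Il1b encodes interleukin 1 beta, a cytokine of neutrophils and of activated monocytes and macrophages (ENSMUSG00000027398, chromosome 2, 129364570 to 129371139, minus strand). It had 2.31, 5.35, 1.09, 0.891 and 6.92 CPM in 16IC 1 to 5, against 7.94, 7.43, 3.06, 11.7 and 8.79 CPM in EIC 1 to 5. Of the EIC tumours, 4 lay above every 16IC tumour, EIC 3 being the exception. The difference was -1.23 (SE 0.59, 95% interval -2.53 to 0.07, edgeR adjusted p = 0.397). An antisense gene, Il1bos, overlaps 18.9% of Il1b on the other strand, and no source used here says whether counting used strand, so its level is uncertain.

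The list held 2 further innate immune receptors, and neither passed. Clec4d (ENSMUSG00000030144, chromosome 6, 123262111 to 123275265, plus strand) encodes a C-type lectin of neutrophils and monocytes. It had 0.432, 2.62, 1.28, 0.343 and 2.99 CPM in 16IC 1 to 5, against 4.87, 1.31, 1.86, 3.75 and 3.49 CPM in EIC 1 to 5, with overlapping groups. Its difference was -0.99 (SE 0.63, 95% interval -2.37 to 0.40, edgeR adjusted p = 0.501). Trem1 (ENSMUSG00000042265, chromosome 17, 48232768 to 48246924, plus strand) encodes a receptor that amplifies neutrophil and monocyte activation. It had 0.865, 0.952, 1.03, 3.56 and 0.235 CPM in 16IC 1 to 5, against 1.74, 0.772, 0.899, 2.31 and 1.93 CPM in EIC 1 to 5. The highest and the lowest Trem1 level of all 10 tumours were both in 16IC, and its difference was -0.21 (SE 0.62, 95% interval -1.58 to 1.17, edgeR adjusted p = 0.900). It was -0.98 without 16IC 4 and turned to 0.07 without 16IC 5. A pseudogene on the other strand overlaps 17.2% of Trem1, which makes its level uncertain as well.

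The granule genes were the sparsest members. Ngp (ENSMUSG00000032484, chromosome 9, 110419747 to 110423012, plus strand) encodes neutrophilic granule protein, which is made in maturing cells of the marrow. It was at 0 counts in 16IC 1, 2, 3 and 5 and at 2 counts in 16IC 4, against 97, 0, 4, 42 and 4 counts in EIC 1 to 5. Thus EIC 1 (5.62 CPM) and EIC 4 (2.63 CPM) held nearly all of it, and EIC 2, like 4 of the 16IC tumours, had none. The limit that a count of 0 allows, 3 counts, is 0.176 to 0.216 CPM in these 16IC libraries. Summed over the groups there were 2 counts in 16IC and 147 in EIC, a ratio of 0.0144 per unit of library (exact 95% interval 0.00173 to 0.0530), which covers counting error only and not the spread between animals. Without the filter the edgeR difference was -5.69 with an SE of 1.57 (adjusted p = 0.362), and DESeq2 called it (adjusted p = 0.0167). Mmp8 (ENSMUSG00000005800, chromosome 9, 7558456 to 7568485, plus strand), neutrophil collagenase, had 0, 0.535, 0.243, 0.137 and 1.64 CPM in 16IC 1 to 5, against 0.927, 0.713, 0.419, 1.19 and 0.422 CPM in EIC 1 to 5. Its highest level was in 16IC 5, and its difference without the filter was -0.49 (SE 0.84, 95% interval -2.31 to 1.33, adjusted p = 0.820).

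**Figure D2:**
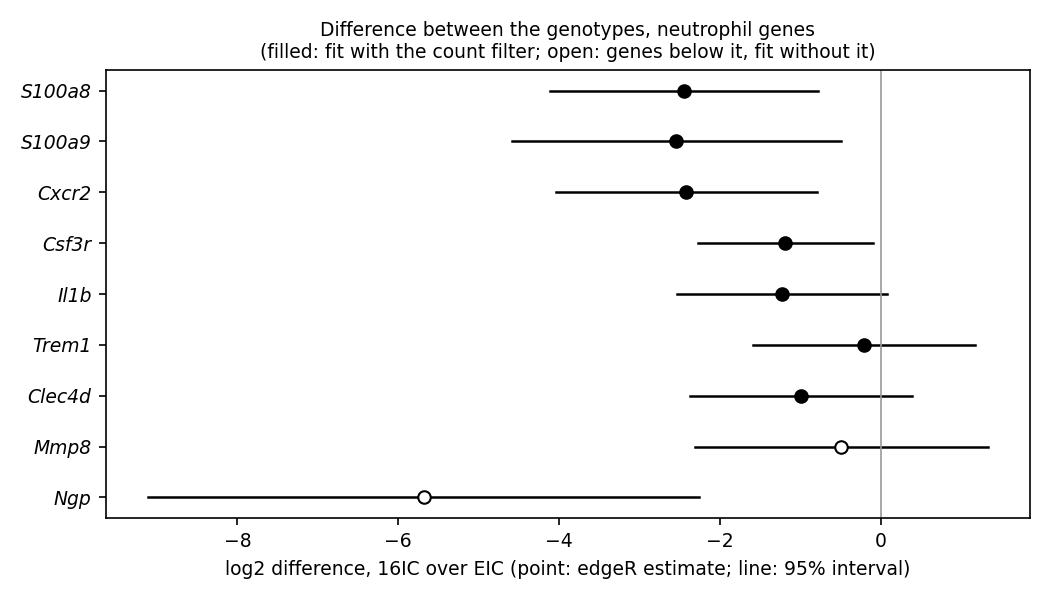
Log2 difference of 16IC over EIC for each measured member (points, edgeR) with its 95% interval (lines), filled where the gene passed the count filter and open where the value comes from the fit without it. All 9 points lie below 0, and the intervals of Il1b, Trem1, Clec4d and Mmp8 cross it.

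The 3 calls by DESeq2 depended on single tumours. With 1 tumour left out, DESeq2 called between 178 genes (without 16IC 4) and 839 genes (without EIC 2) in all, and 356 with all 10. S100a8 was called in 5 of 10 fits, Cxcr2 in 4 of 10 and Ngp in 6 of the 9 fits that gave it an adjusted p. The Ngp call was lost without EIC 1 (adjusted p = 0.184), 16IC 1 (0.0562) or 16IC 3 (0.0592), and no adjusted p was given without EIC 4. Leaving out EIC 1, EIC 4, 16IC 1, 16IC 3 or 16IC 4 ended the S100a8 call (highest adjusted p 0.178), and leaving out any of these 5 or 16IC 2 ended the Cxcr2 call (highest 0.195). Without 16IC 5, the 16IC tumour richest in neutrophil transcripts, DESeq2 called S100a9 (adjusted p = 0.00943) and Csf3r (0.0277) as well, and it also called S100a9 without EIC 2 (0.0206). The edgeR differences of S100a8, S100a9 and Cxcr2 lay between -3.22 and -1.90 in all 10 fits.

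**Figure D3:**
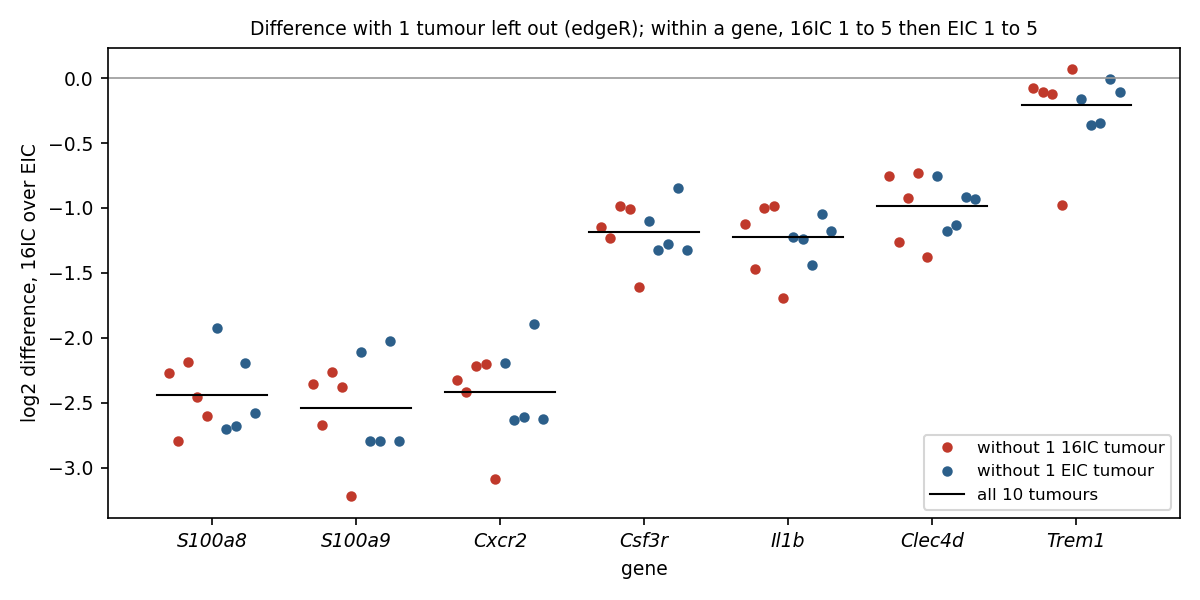
Log2 difference of 16IC over EIC (vertical axis, edgeR) for the 7 tested members with each tumour left out in turn, coloured by the genotype of the tumour left out, with the value from all 10 tumours as a black line. S100a8, S100a9 and Cxcr2 lie between -3.22 and -1.90, and Trem1 reaches 0.07 without 16IC 5 and -0.98 without 16IC 4.

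Compared per length, with the authors' FPKM values, S100a8 and S100a9 were the most abundant members in both genotypes. In 16IC, S100a8 averaged 3.74 ± 2.48 FPKM and S100a9 3.59 ± 3.43 FPKM, and in EIC they averaged 20.6 ± 18.5 and 21.1 ± 22.0 FPKM, so the pair could not be ordered. Il1b followed with 1.69 ± 1.38 FPKM in 16IC and 3.97 ± 1.57 FPKM in EIC, then Csf3r with 1.22 ± 0.793 FPKM in 16IC and 2.78 ± 1.52 FPKM in EIC, and Clec4d with 0.926 ± 0.745 FPKM in 16IC and 1.86 ± 0.905 FPKM in EIC. In both genotypes Il1b differed from Csf3r, and Csf3r from Clec4d, by less than the larger SD of the pair. The lowest member was Ngp in 16IC, at 0.0217 ± 0.0486 FPKM, where it was listed at 0 in 4 of 5 tumours, and Mmp8 in EIC, at 0.294 ± 0.133 FPKM. Ngp, at 1.41 ± 1.96 FPKM in EIC, stood above Cxcr2 there (1.02 ± 0.882 FPKM), and the SD of Ngp was larger than its mean.

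The tumours kept much the same order across members. EIC 4 was among the 2 highest tumours for all 9 measured members and EIC 1 for 6 of 9, whereas 16IC 1 was among the 3 lowest for 8 of 9 and 16IC 3 and 16IC 4 for 7 of 9 each. To describe this apart from genotype, log2 CPM was taken as the deviation from the genotype mean, over 10 tumours. The 15 pairs of tested members without Trem1 had Pearson r from 0.566 to 0.951 (median 0.716). The closest pairs were Cxcr2 with Csf3r (r = 0.951, Spearman rho 0.903), S100a9 with Cxcr2 (r = 0.942, rho 0.818), S100a9 with Csf3r (r = 0.916, rho 0.842) and S100a8 with S100a9 (r = 0.913, rho 0.927). These 4 values were 0.886, 0.902, 0.912 and 0.881 without the 2 tumours farthest from the median of the first gene of each pair. Other pairs rested more on such tumours: left out in the same way, Csf3r with Clec4d came to 0.444 (0.613 with all), Il1b with Clec4d to 0.483 (0.716 with all) and Cxcr2 with Il1b to 0.496 (0.698 with all). The r of Trem1 with the other 6 ran from -0.454 (Il1b) to 0.241 (S100a8). With Il1b and Clec4d its sign rested on few tumours, since without the 2 farthest the r with Il1b was 0.435 and that with Clec4d was 0.662 (-0.347 with all). With S100a8, S100a9, Cxcr2 and Csf3r the sign of the r of Trem1 stayed, the r then running from -0.337 (S100a9) to 0.142 (S100a8). With all tumours, though, S100a9 with Trem1 had r = -0.054 and a rho of the opposite sign (0.236). These correlations describe 10 tumours that share their libraries and their scaling, and no p is given for them.

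**Figure D4:**
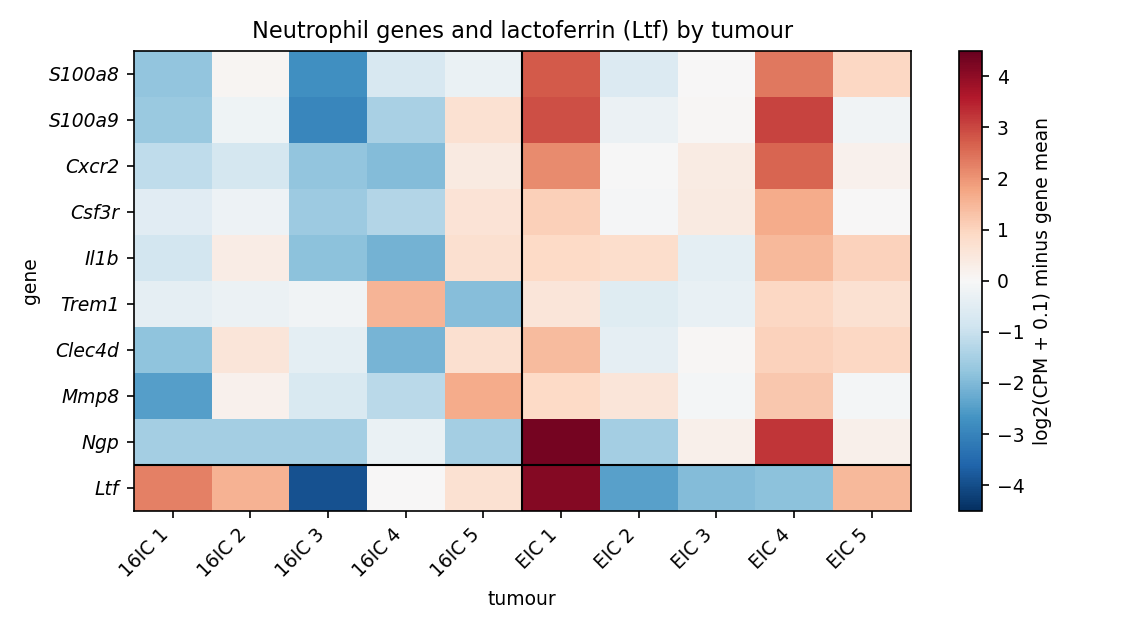
Colour gives log2(CPM + 0.1) of each measured member and of Ltf (rows, Ltf below the line) minus the mean of that gene over the 10 tumours, for 16IC 1 to 5 (left of the line) and EIC 1 to 5 (right). The members are jointly high in EIC 1 and EIC 4 and mostly low in 16IC 1, 16IC 3 and 16IC 4, Trem1 in 16IC 4 being an exception, and Ltf is high in EIC 1 and not in EIC 4.

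Among all other tested genes, those with deviations most like the mean standardised deviation of the 7 members were Ece1, which encodes endothelin-converting enzyme (r = 0.978, rho 0.976), Hhipl1 (r = 0.974, rho 0.976), Cytip, a regulator of leukocyte adhesion (r = 0.969, rho 0.988), Plat, tissue plasminogen activator (r = 0.969, rho 0.939), Tyrobp, the adaptor through which TREM1 signals (r = 0.969, rho 0.879), and Antxr2 (r = 0.965, rho 0.952), each over 10 tumours. Without EIC 4 and 16IC 5, the tumours farthest from the median, their r ran from 0.946 to 0.978. High r with the members was common: Cxcl1, at rank 953 of the other tested genes, still had r = 0.777. Cytip had 3.46, 24.3, 3.16, 3.43 and 35.6 CPM in 16IC 1 to 5, against 49.1, 1.72, 4.97, 59.8 and 14.9 CPM in EIC 1 to 5. It was high in the same EIC 1, EIC 4 and 16IC 5 as most members, and the genotypes overlapped, with a difference of -0.90 (edgeR adjusted p = 0.704). Antisense genes overlap 57.9% of Hhipl1 and 19.7% of Cytip, so their levels are uncertain.

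Lactoferrin followed the members' order only loosely and had a higher level per length than any member, at 265.9 ± 237.0 FPKM in 16IC and 533.5 ± 959.3 FPKM in EIC. Ltf had 2171, 1328, 29.7, 457.4 and 719.4 CPM in 16IC 1 to 5, against 7740, 82.6, 115.8, 122.9 and 1227 CPM in EIC 1 to 5. EIC 4, which had the highest summed member level, was 7th of 10 for Ltf, and 16IC 1, which was 9th for the members, was 2nd for Ltf. EIC 1 was 1st for Ltf and 2nd for the members, and 16IC 3 was last for both. Within genotypes the r of Ltf with the members' deviation was 0.506 (rho 0.564, 10 tumours), at rank 3398 among the other tested genes. The difference of Ltf was -0.98 (SE 1.33, edgeR adjusted p = 0.760). Added to the members it would make 81.6% to 99.5% of the total in 16IC and 55.8% to 98.8% in EIC.

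Other genes of neutrophils and their precursors were partly lower with the members and partly not. Of 34 such genes, 19 were tested, with 3 higher and 16 lower in 16IC and a median difference of -1.43, where all genes tested had a median of -0.02 and 52.3% were lower. That median was -0.87 with a filter of at least 1 CPM in 5 libraries. Of the 19, 0 passed edgeR and DESeq2 called 3, Prtn3 and Mmp9 as lower and Cd177 as higher in 16IC. Prtn3, the granule protease proteinase 3, had 0.504, 4.58, 1.03, 0.891 and 4.34 CPM in 16IC 1 to 5, against 31.3, 3.27, 5.69, 37.2 and 19.1 CPM in EIC 1 to 5. It followed the order of the members (r = 0.916, rho 0.855, rank 86 among the other tested genes). The platelet gene Pf4 (r = 0.938, rank 38) and the keratin gene Krt14 (r = 0.926, rank 65) stood above it, so that order was not particular to neutrophil genes. The difference of Prtn3 was -3.08 (SE 0.83, edgeR adjusted p = 0.261, DESeq2 adjusted p = 0.00427). Its companions in the primary granule, named after their values were seen, were almost absent: Mpo, myeloperoxidase, averaged 0.0117 CPM in 16IC and 0.445 CPM in EIC, and Elane, neutrophil elastase, 0.0243 CPM in 16IC and 0.199 CPM in EIC. An antisense gene overlaps 49.5% of Mpo, so its level is uncertain. Mmp9, gelatinase B, which macrophages and tumour cells can make too, averaged 1.76 ± 1.10 CPM in 16IC and 8.55 ± 7.79 CPM in EIC (difference -2.27, edgeR adjusted p = 0.288).

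Cd177, a surface glycoprotein of neutrophils, had a difference of the opposite sign. It had 202.8, 4.22, 758.6, 324.1 and 10.3 CPM in 16IC 1 to 5, against 7.65, 17.9, 37.5, 0.750 and 5.12 CPM in EIC 1 to 5. The 3 tumours highest for Cd177 (16IC 3, 16IC 4 and 16IC 1) were the 3 lowest for the summed members, and EIC 4, lowest for Cd177, was highest for the members. In 16IC 3, 16IC 4 and 16IC 1 the members summed to only 6.69, 11.4 and 10.4 CPM, far below Cd177 alone. Cd177 was not used here as a measure of neutrophils, and which cells made it was not tested. The difference of Cd177 was 4.24 (SE 1.39, edgeR adjusted p = 0.290, DESeq2 adjusted p = 0.0329), and within genotypes its r with the members' deviation was -0.859 (rho -0.782, 10 tumours).

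Signals that make or call neutrophils were few and did not pass. Of 6 ligand genes of CXCR2 only Cxcl1 and Cxcl5 were abundant enough to test. Cxcl5 averaged 0.566 ± 0.693 CPM in 16IC and 2.53 ± 2.23 CPM in EIC (difference -2.13, edgeR adjusted p = 0.370), and Cxcl1 6.60 ± 5.69 CPM in 16IC and 8.44 ± 3.14 CPM in EIC (-0.35, adjusted p = 0.801). Csf3, which encodes G-CSF itself, averaged 0.829 ± 0.969 CPM in 16IC and 2.07 ± 1.30 CPM in EIC (-1.30, edgeR adjusted p = 0.477). Csf2rb, a receptor subunit for GM-CSF, averaged 13.2 ± 2.97 CPM in 16IC and 19.6 ± 7.80 CPM in EIC (-0.57, adjusted p = 0.425). With Csf3, 7 cytokine and receptor genes of neutrophil production were tested, 2 higher and 5 lower with a median of -0.23, and 0 passed edgeR or DESeq2. Of 11 tested genes of the interleukin 1 pathway, 4 were higher and 7 lower (median -0.32), and 0 passed either test. Il1rn, the antagonist of the interleukin 1 receptor, averaged 2.79 ± 1.35 CPM in 16IC and 7.36 ± 3.86 CPM in EIC (-1.40, edgeR adjusted p = 0.306), whereas Pycard, the inflammasome adaptor, averaged 19.6 ± 5.71 CPM in 16IC and 11.2 ± 2.82 CPM in EIC (0.81, adjusted p = 0.290). Another gene overlaps 14.4% of Pycard on the other strand, which leaves it uncertain.

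Of the 6 receptor and adaptor genes for the calgranulins and TREM1, 2 were higher and 4 lower (median -0.26), with 0 calls by edgeR and 1 by DESeq2. That one was Ager, the receptor RAGE, at 0.877 ± 0.296 CPM in 16IC and 2.60 ± 0.754 CPM in EIC without overlap (difference -1.56, edgeR adjusted p = 0.249, DESeq2 adjusted p = 0.00561), where 2.58% of tested genes had groups without overlap. Of the other S100 genes 8 were tested, 4 higher and 4 lower (median 0.08), and DESeq2 called S100a3, below the count filter, as lower (0.202 ± 0.159 CPM in 16IC and 1.07 ± 0.552 CPM in EIC, adjusted p = 0.0382). Of 8 tested genes of leukocyte adhesion and entry, 2 were higher and 6 lower (median -0.53) and 0 passed. The lowest p there belonged to Itgam, the integrin CD11b of neutrophils and macrophages (3.22 ± 2.14 CPM in 16IC and 6.32 ± 2.01 CPM in EIC, -0.97, edgeR adjusted p = 0.381), which overlaps a predicted gene on the same strand over 99.9% of its length and is uncertain.

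Markers of other cells moved beside the members in several tumours. All 6 pan-leukocyte genes were lower in 16IC (median -0.51, 0 called), and their sum ran from 77.0 to 169.7 CPM in 16IC and from 97.8 to 249.6 CPM in EIC. Per unit of this sum the members had 0.130 ± 0.0415 in 16IC, from 0.0869 to 0.182, and 0.304 ± 0.150 in EIC, from 0.184 to 0.534. The groups did not overlap but nearly met, with 0.1824 in 16IC 5 and 0.1839 in EIC 5. The ratio of Csf3r to Ptprc, the gene of the leukocyte antigen CD45, did overlap, from 0.183 to 0.391 in 16IC and from 0.203 to 0.646 in EIC. Neither ratio was tested. Of 10 macrophage genes, 9 were lower (median -0.29, 0 called), with sums of 280.7 to 667.6 CPM in 16IC and 373.8 to 686.8 CPM in EIC. All 6 tested of 8 monocyte genes had a negative difference (median -0.86), with sums of 54.9 to 253.9 CPM in 16IC and 249.6 to 643.9 CPM in EIC. Most of that sum came from Vcan, Ace and F13a1, which other cells also express. Of the rest, the differences of Ccr2 (-0.20) and Plac8 (-0.29) were small and that of Ly6c2 was larger (-1.50, edgeR adjusted p = 0.530). Chil3 and Treml4, below the count filter, had -3.16 and -1.34 in the fit without it. DESeq2 called 1 of the monocyte genes, Vcan, a matrix proteoglycan that fibroblasts also make (28.6 ± 14.1 CPM in 16IC, 172.2 ± 155.8 CPM in EIC, difference -2.59, edgeR adjusted p = 0.249, DESeq2 adjusted p = 8.78e-04). Keratinocyte genes, 4 of 13 tested and all 4 lower (median -2.21), summed to 5.69 to 22.8 CPM in 16IC and 10.1 to 570.6 CPM in EIC. On average most of the EIC sum came from Krt14, which is not private to keratinocytes (4.09 ± 5.82 CPM in 16IC, 142.1 ± 193.8 CPM in EIC). The keratinocyte sum was highest in EIC 1 (570.6 CPM) and EIC 4 (181.5 CPM), the tumours highest for S100a8 and S100a9. Of the 13, Krt16, Krt6b, Krtdap and Sprr1b, all below the count filter, were at 0 in all 16IC tumours. In EIC they averaged 3.03 ± 5.70, 1.34 ± 2.25, 0.637 ± 1.43 and 0.232 ± 0.518 CPM in that order, each with an SD above its mean. DESeq2 called Krt6b as lower (adjusted p = 0.00259).

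The part of monocytes and keratinocytes in the members' levels was not tested. Without S100a8 and S100a9 the summed level of the other 7 measured members was 11.8 ± 6.90 CPM in 16IC and 28.4 ± 14.3 CPM in EIC. Markers of the remaining cell types gave 0 calls by edgeR or DESeq2. Of mast cell, eosinophil and basophil genes 4 were tested and all were lower (median -1.22), with sums of 0.487 to 15.3 CPM in 16IC and 4.55 to 22.4 CPM in EIC. Of 7 tested red cell and platelet genes, 6 were lower (median -0.52), with sums of 380.0 to 914.8 CPM in 16IC and 311.8 to 2598 CPM in EIC. Of T cell genes 2 of 6 were tested, Cd4 lower and Cd8a higher (median 0.01), and the sums were 2.67 to 7.27 CPM in 16IC and 0.950 to 15.9 CPM in EIC. Of the 6 epithelial genes 3 were higher and 3 lower (median -0.16).

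**Figure D5:**
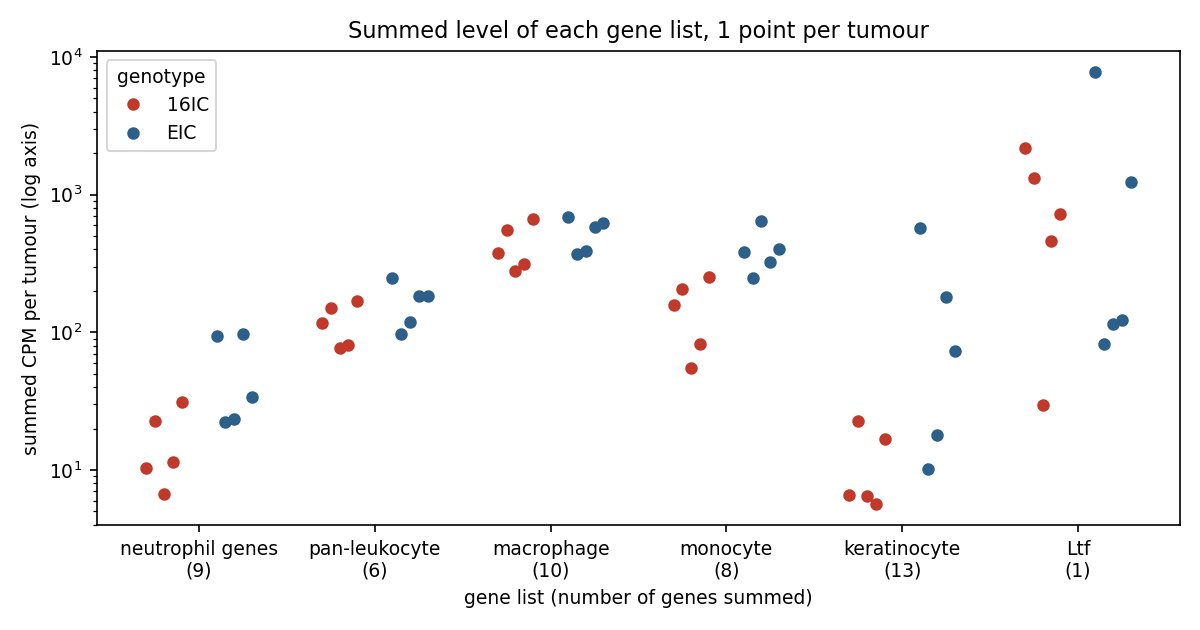
Summed CPM per tumour (log axis) of the 9 measured neutrophil genes, of 4 marker lists and of Ltf, with 16IC (red, left) and EIC (blue, right) as 1 point per tumour. Neutrophil genes ran from 6.69 to 31.0 CPM in 16IC and from 22.5 to 97.4 CPM in EIC. The monocyte and keratinocyte sums were also lower in most 16IC tumours, and the genotypes overlapped in every sum shown.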

How the data were processed

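Tumour RNA (Qiagen RNeasy) was made into NEBNext Ultra II libraries, per the labels' protocols. The submitters' processing notes name STAR, HTSeq, Trimmomatic, limma and edgeR and the build GRCm38 (mm10). For tool versions, strand use and annotation the sources used here give nothing. The deposited table gives raw counts, a normalized signal (counts over 1 factor per library, not used for results), FPKM, and the authors' log2 fold changes and p-values, which were not used for results.

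The test was edgeR 4.0.16 in R 4.3.3 (TMM scaling, robust quasi-likelihood), genotype as the only term, after filterByExpr (minimum count 10, 14915 genes), with p-values adjusted by Benjamini-Hochberg (threshold 0.05). CPM used TMM-scaled library sizes over the tested genes. DESeq2 1.42.0, other scalings, other filters and leaving out each tumour were alternatives. The script was tested on simulated data. A pseudocount of 0.1 CPM was added for deviations on the log2 scale. Intervals on counts are exact. No batch is given in the labels. Overlaps between genes come from GENCODE M21 (GRCm38), promoters from RefSeq. Members and lists were chosen with earlier results of these data known. Named genes are all members, list genes called by edgeR or DESeq2 or otherwise up to 3 with the smallest p, and the 6 most alike.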

Additional observations from a re-analysis of the deposited data

Results flagged for a closer look

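In 4 of 28 groups of 5 tumours examined, 1 tumour stood apart from the other 4 by more than 71% of the group's range. For independent, normally distributed values chance does this in about 1 of 20 groups. The groups here were skewed levels and ratios from the same tumours, so that rate does not apply to them. Trem1 stood at 3.56 CPM in 16IC 4, Ngp at 0.137 CPM in 16IC 4 (2 counts, the other 16IC tumours being at 0), Ltf at 7740 CPM in EIC 1, and the ratio of S100a8 to S100a9 at 3.34 in EIC 5.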

How the results depend on the processing

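No member that entered the fit was called by edgeR under TMM, under DESeq2's size factors, under total-count scaling, without the filter, with at least 1 CPM in 5 libraries, without the robust option or with 1 tumour left out (0 in each). Of the fits with 1 tumour left out, Ngp entered 0 and Mmp8 entered 6 of 10. DESeq2 called 356 genes, 3 of them members, against 0 by edgeR. It made S100a8 (-2.45, adjusted p = 0.0258) and Cxcr2 (-2.44, adjusted p = 0.0341) pass. With 1 tumour left out, edgeR called 0 to 2 genes (1 without EIC 1, 2 without EIC 2). The median difference of the tested members ran from -1.69 to -1.003, that of the other neutrophil genes from -1.73 to -0.99, and the log2 ratio of the summed members (-1.72 with all) from -2.09 to -1.42. The median of the other neutrophil genes was -0.87 with at least 1 CPM in 5 libraries. The log2 ratio of the summed members was -2.16 with the authors' FPKM and -1.26 without S100a8 and S100a9. The difference of Trem1 ran from -0.98 (without 16IC 4) to 0.069 (without 16IC 5, adjusted p = 0.956), and the cause was not tested. No paired analysis was possible because the labels give no replicate numbers. Ngp and Mmp8 had few counts, and the SD of Ngp exceeded its mean in both genotypes.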

Other observations

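Further granule and precursor genes, chosen after their values were seen, stood beside the members as follows. Retnlg, a resistin-like gene of mature mouse neutrophils that lay below the count filter, had 0.288, 0.119, 0.0608, 0 and 0.528 CPM in 16IC 1 to 5, against 5.33, 0.238, 0.180, 2.88 and 0.723 CPM in EIC 1 to 5. Like Ngp it was highest in EIC 1 and EIC 4. Lcn2, lipocalin 2 of the secondary granule, had 12928, 6185, 6167, 4949 and 6704 CPM in 16IC 1 to 5, against 4093, 7905, 7525, 3540 and 5970 CPM in EIC 1 to 5. EIC 4 and EIC 1, the highest tumours for the members, were the 2 lowest for Lcn2. Within genotypes the r of Lcn2 with the members' deviation was -0.581 (rho -0.467). Its levels were far above the members' sum (6.69 to 31.0 CPM in 16IC, 22.5 to 97.4 CPM in EIC). Lcn2 was not used here as a measure of neutrophils, and which cells made it was not tested. The transcription factor gene Cebpe and the receptor gene Trem3 were at 0 in all 16IC tumours, and averaged 0.0352 CPM (Cebpe) and 0.129 CPM (Trem3) in EIC. Those means rest on 2 counts in EIC 1 and 1 in EIC 5 for Cebpe, and on 7 in EIC 1 and 4 in EIC 3 for Trem3. The other EIC tumours were at 0 too, so the zeros do not separate the genotypes.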
